A study of Rattus norvegicus with 6 samples.

Results

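The enzymes that remove superoxide and peroxides were followed in rat liver through 10 genes, chosen by symbol from the expression table: catalase (Cat), the superoxide dismutases Sod1, Sod2 and Sod3, the glutathione peroxidases Gpx1, Gpx3 and Gpx4, and the peroxiredoxins Prdx1, Prdx5 and Prdx6. The table listed 19616 genes, and all 10 passed the filter on low values and were among the 14864 genes tested. RNA came from bulk liver of male SD rats, 3 in the CL group (CL5, CL6 and CL7) and 3 in the FL group (FL2, FL5 and FL12), with 1 library per rat. The sample titles label the CL livers as normal and the FL livers as fibrosis. CCl4, a hepatotoxic solvent, was given to the FL rats in an equal volume of olive oil, and the CL rats received the oil alone. Doses of 2 mL/kg went into the peritoneum 2 times each week, over 5 weeks. Total RNA was freed of ribosomal RNA before sequencing, and expression was given as FPKM (fragments scaled to transcript length and to the number of mapped fragments). FPKM summed over all genes to 309425, 340467 and 315259 in CL5, CL6 and CL7, and to 309226, 272350 and 272110 in FL2, FL5 and FL12, and the read depth of each rat is unknown.

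Superoxide dismutases turn superoxide into hydrogen peroxide, which catalase splits into water and oxygen inside peroxisomes. Glutathione peroxidases reduce hydrogen peroxide and lipid peroxides with glutathione, most of them through a selenocysteine in the active site, and peroxiredoxins do so through a reactive cysteine that thioredoxin or glutathione restores. Hepatocytes are rich in these enzymes, and CCl4 is known to start lipid peroxidation when it is metabolised in them.

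The levels of the 10 genes, compared per length as FPKM, spanned a wide range in both groups. In the CL group the order of the mean levels was Cat (912 FPKM), Gpx1 (311), Sod1 (139), Gpx4 (53.4), Prdx5 (52.8), Prdx6 (34.1), Sod2 (24.1), Sod3 (9.91), Prdx1 (9.10) and Gpx3 (5.38). Neighbours in this order were separate in all 3 rats except Gpx4 with Prdx5 and Sod3 with Prdx1, whose values overlapped. In the FL group the order was Cat (561 FPKM), Gpx1 (188), Sod1 (126), Prdx5 (49.7), Gpx4 (43.9), Prdx6 (42.9), Gpx3 (32.6), Sod2 (22.3), Prdx1 (8.94) and Sod3 (5.55). There the levels of Gpx4 and Prdx6, of Prdx6 and Gpx3, and of Gpx3 and Sod2 overlapped. Gpx3 thus stood at place 10 in the CL group and at place 7 in the FL group, and Sod3 at place 8 and at place 10. Among the 16957 protein-coding genes, the mean level of Cat ranked 37 in the CL group and 58 in the FL group, and that of Gpx3 ranked 4598 and 974.

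Cat alone made up 58.2%, 59.2% and 59.0% of the summed FPKM of the 10 genes in CL5, CL6 and CL7, and 50.7%, 55.2% and 48.7% in FL2, FL5 and FL12. The sum itself was 1516, 1629 and 1506 FPKM in the CL rats and 936, 1296 and 1011 FPKM in the FL rats. As a share of all FPKM, the 10 genes took 0.490%, 0.479% and 0.478% in the CL rats and 0.303%, 0.476% and 0.371% in the FL rats. FL5 was the FL rat closest to the CL group on each of these measures, and its share of all FPKM lay only just below theirs.

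**Figure D1:**
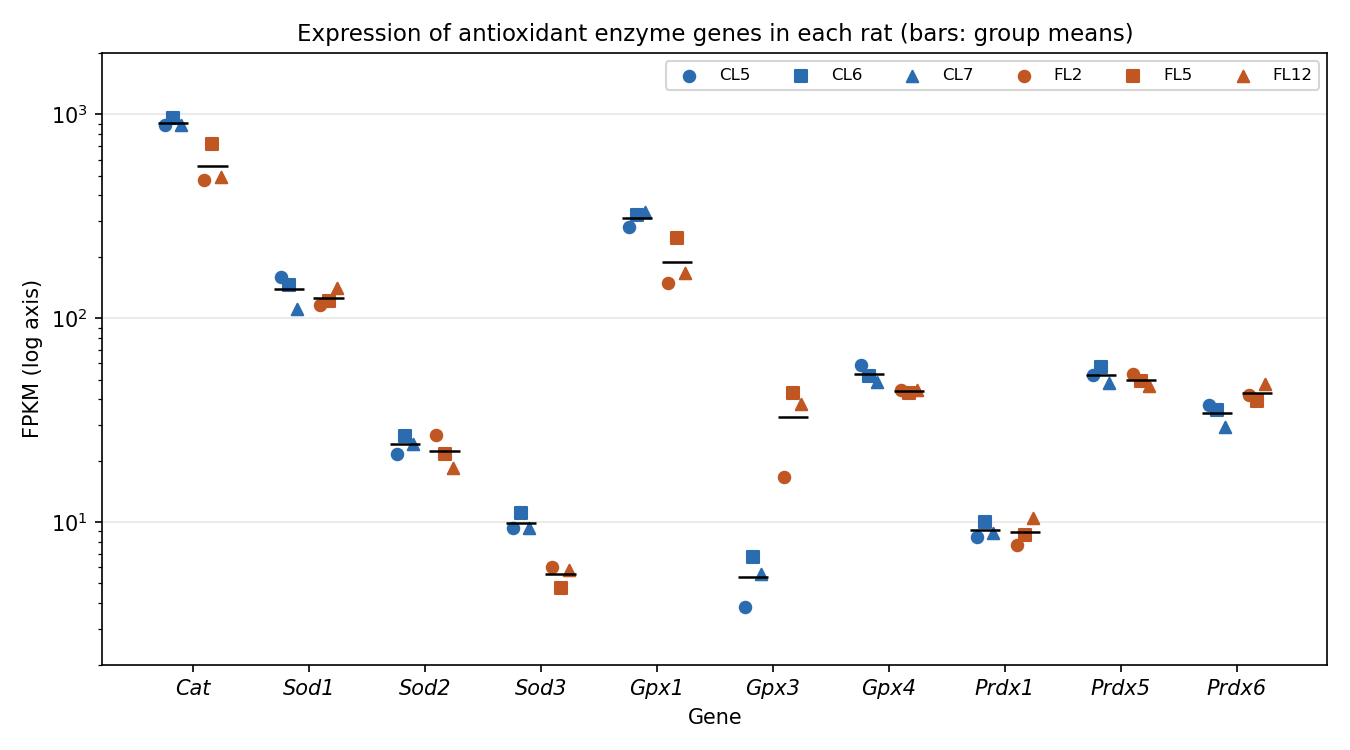
FPKM (log axis) of the 10 antioxidant enzyme genes in each of 3 CL rats (blue) and 3 FL rats (orange), with bars at the group means. Gpx3 and Prdx6 are higher in every FL rat than in any CL rat, while Cat, Sod3, Gpx1 and Gpx4 are lower in every FL rat.

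At an adjusted p under 0.05 (limma over all genes tested, with Benjamini-Hochberg adjustment), Gpx3 was the 1 gene of the 10 that was higher in the FL group, where 16.9% of all genes were called higher, and Sod3 and Gpx1 were the 2 that were lower, where 1.94% of all genes were called lower. With a fold change of at least 2 in addition, Gpx3 was the 1 call left and 0 of the 10 were called lower, against 9.29% and 0.935% of all genes. The rats of the groups did not overlap for 2 genes that were higher in the FL group (Gpx3 and Prdx6) and 4 that were lower (Cat, Sod3, Gpx1 and Gpx4), against 35.7% and 4.78% of all genes. The p-values rest on the spread between 3 rats in each group, which limma draws towards a trend with mean level over all genes tested. They are thus not set by the spread of the gene's own rats alone. A lower level of RNA in bulk liver may come from fewer cells of a type or from less RNA per cell, which cannot be told apart.

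The scaling between rats bears on these counts. The log2FC is the FL mean minus the CL mean on log2(FPKM + 0.1), given with limma's standard error (SE). Its median over all genes was 0.29 on the deposited FPKM, 0.08 after median scaling, -0.04 after quantile normalization and 0.46 after rescaling each rat to the same sum. On the deposited FPKM 2518 genes were called higher and 288 lower, against 1301 and 533 after median scaling and 778 and 536 after quantile normalization. After median scaling, where 8.75% of all genes were called higher and 3.59% lower, 1 of the 10 was higher (Gpx3) and 4 were lower (Cat, Sod3, Gpx1 and Gpx4). The 10 genes had a median log2FC of -0.13 on the deposited FPKM, which lay -0.41 from that of all genes (-0.23 after quantile normalization), and the sign of their own median turned to 0.05 after rescaling to the same sum. Changes relative to the median of all genes are given beside the log2FC values, and they depend on the scaling too, that of Cat going from -1.01 to -0.56 after quantile normalization.

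**Figure D2:**
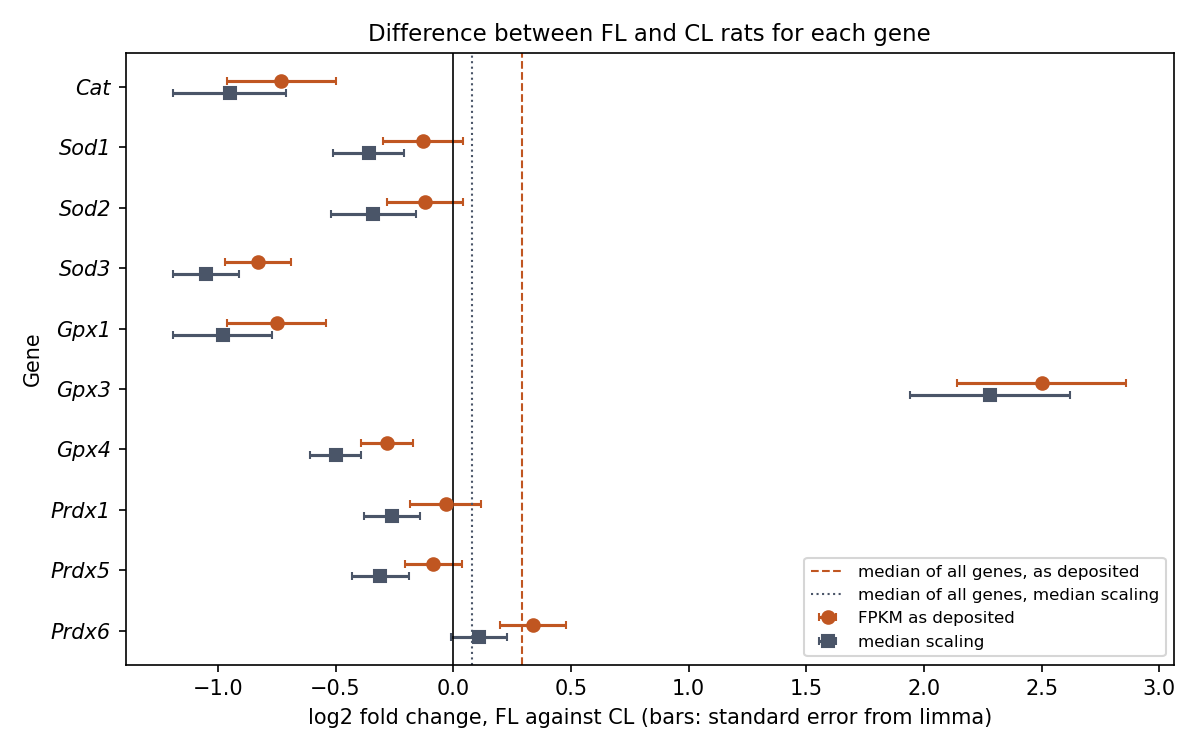
Log2FC of the FL against the CL group for the 10 genes, on log2(FPKM + 0.1), as deposited (circles) and after median scaling (squares), with bars for limma's standard error. The dashed and dotted lines mark the median of all genes, 0.29 as deposited and 0.08 after median scaling; Sod1, Sod2, Prdx1 and Prdx5 lie below 0 here and above 0 after rescaling each rat to the same sum.

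Cat (ENSRNOG00000008364, chromosome 3) encodes the haem enzyme that breaks down hydrogen peroxide in peroxisomes. It read 883, 964 and 889 FPKM in rats CL5, CL6 and CL7 against 475, 716 and 492 FPKM in rats FL2, FL5 and FL12. Each FL rat lay under each CL rat, with FL5 above the other FL rats, and the spread was wider in the FL group (SD 134 FPKM around 561) than in the CL group (SD 45.4 around 912). The log2FC was -0.73 (SE 0.23) and -1.01 relative to the median of all genes, short of the threshold (adjusted p = 0.0652). Over 15 alternatives the log2FC stayed between -0.95 and -0.55, and the adjusted p between 0.0425 and 0.176. It was under the threshold in 3 of them, namely median scaling, a mean of at least 1 FPKM and a robust prior.

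Among 10534 other genes averaging 1 FPKM or more, the profiles over the 6 rats most like that of Cat were those of Cmtm6, Gpx1 and Ttr. The root mean square difference of the centred log2 profiles was 0.0586, 0.0822 and 0.0942. Cat was in turn the gene nearest to Gpx1, followed by a gene without a description and by Cmtm6 at 0.118. The FPKM of Cat was 3.14, 3.02 and 2.68 times that of Gpx1 in CL5, CL6 and CL7 and 3.18, 2.88 and 2.94 times in FL2, FL5 and FL12, so this ratio overlapped between the groups.

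Sod3 (ENSRNOG00000003869, chromosome 14) encodes the superoxide dismutase that is secreted and bound to the extracellular matrix. Its level was 9.31, 11.1 and 9.32 FPKM in rats CL5, CL6 and CL7 against 6.05, 4.77 and 5.82 FPKM in rats FL2, FL5 and FL12. Every FL rat was below every CL rat, and FL5, which was highest for Cat, was lowest here. Sod3 fell in the FL group, with a log2FC of -0.83 (SE 0.14, adjusted p = 0.00917) and of -1.12 relative to the median of all genes. It stayed under the threshold in all 15 alternatives, with adjusted p-values from 0.00699 to 0.0372. The nearest profiles were those of Echdc1, Rnf8 and Papss2, at 0.114, 0.117 and 0.122.

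Sod1 (ENSRNOG00000002115, chromosome 11), the copper and zinc enzyme of the cytosol, read 160, 146 and 111 FPKM in the CL rats against 116, 122 and 140 FPKM in the FL rats. Sod2 (ENSRNOG00000019048, chromosome 1), the manganese enzyme of mitochondria, read 21.5, 26.6 and 24.2 FPKM in the CL rats against 26.8, 21.6 and 18.5 FPKM in the FL rats. For both genes the groups overlapped, and CL7 was the lowest rat for Sod1 while FL12 was the lowest for Sod2. The log2FC was -0.13 (SE 0.17, adjusted p = 0.611) for Sod1 and -0.12 (SE 0.16, adjusted p = 0.614) for Sod2, or -0.42 and -0.41 relative to the median of all genes, and both turned positive after rescaling to the same sum (0.05 and 0.06). The nearest profiles were those of Arid3b, Fdx1 and Ears2 for Sod1 (0.0410, 0.0608 and 0.0635) and of Ufm1, RGD1308742 and Zfp574 for Sod2 (0.0386, 0.0517 and 0.0599). Sod1 supplied 83.9%, 79.4% and 76.9% of the summed FPKM of the 3 dismutases in the CL rats and 77.9%, 82.2% and 85.2% in the FL rats.

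Gpx3 (ENSRNOG00000052564, chromosome 10) encodes the secreted glutathione peroxidase of plasma, which is known to be made mainly in the kidney. It read 3.82, 6.76 and 5.56 FPKM in rats CL5, CL6 and CL7 against 16.6, 43.1 and 37.9 FPKM in rats FL2, FL5 and FL12. The lowest FL rat, FL2, was still above the highest CL rat. Gpx3 rose in the FL group, with a log2FC of 2.50 (SE 0.36, adjusted p = 0.00545), 2.21 above the median of all genes and 5.65-fold on the scale of log2(FPKM + 0.1). It was called in all 15 alternatives, with log2FC values from 2.24 to 2.92 and adjusted p-values from 0.00169 to 0.0307. Within groups it was the most variable of the 10, with an SD of 0.60 on the log2 scale, against a median of 0.20 over the 10 genes and 0.25 over all genes tested.

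Gpx1 (ENSRNOG00000048812, chromosome 8) encodes the selenoenzyme of the cytosol and mitochondria. Its level was 281, 320 and 331 FPKM in rats CL5, CL6 and CL7 against 149, 249 and 167 FPKM in rats FL2, FL5 and FL12. The groups did not overlap, and FL5 was again the highest FL rat. Gpx1 fell in the FL group by the threshold, with a log2FC of -0.75 (SE 0.21, adjusted p = 0.0446) and of -1.04 relative to the median of all genes. The call was close to the threshold and was lost in 9 of 15 alternatives. These were quantile normalization, rescaling to the same sum, no filter, limma without trend, and leaving out CL5, CL6, CL7, FL2 or FL12, under which the adjusted p was 0.0844, 0.121, 0.145, 0.0714 and 0.129, with alternatives spanning 0.0262 to 0.145. The log2FC stayed negative throughout, from -0.98 to -0.58.

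Gpx4 (ENSRNOG00000013604, chromosome 7), which reduces peroxides of phospholipids in membranes, read 59.1, 52.1 and 48.9 FPKM in the CL rats against 44.2, 43.0 and 44.5 FPKM in the FL rats. The FL rats lay close together, with an SD of 0.820 FPKM against 5.19 in the CL rats, and all of them below the CL rats. The log2FC was -0.28 (SE 0.11) and -0.57 relative to the median of all genes, short of the threshold (adjusted p = 0.127). It was -0.50 after median scaling (adjusted p = 0.0282) and only -0.10 after rescaling to the same sum (adjusted p = 0.602), the ends of the range over the alternatives. Nearest in profile were Top3a, Chac2 and Ddi2, at root mean square differences of 0.0368, 0.0517 and 0.0539.

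The makeup of the glutathione peroxidase RNA differed between the groups in every rat. Of the summed FPKM of Gpx1, Gpx3 and Gpx4, Gpx3 made up 1.11%, 1.79% and 1.44% in CL5, CL6 and CL7, and 7.92%, 12.9% and 15.2% in FL2, FL5 and FL12. The share of Gpx1 was 81.7%, 84.5% and 85.9% in the CL rats and 71.0%, 74.3% and 67.0% in the FL rats. The sum was 344, 379 and 386 FPKM in the CL rats and 210, 335 and 250 FPKM in the FL rats. Neither share overlapped between the groups, and the highest share of Gpx3 was in FL12, although its level was highest in FL5.

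Prdx6 (ENSRNOG00000002896, chromosome 13), the peroxiredoxin that works with glutathione and also has phospholipase activity, read 37.7, 35.3 and 29.2 FPKM in the CL rats against 41.8, 39.5 and 47.5 FPKM in the FL rats. The FL rats were all above the CL rats, by a small gap. The log2FC was 0.34 (SE 0.14, adjusted p = 0.120), which is only 0.05 above the median of all genes. It passed the threshold in 1 of 15 alternatives, rescaling to the same sum (log2FC 0.52, adjusted p = 0.0416). With median scaling the log2FC was 0.11 (adjusted p = 0.589), and the adjusted p of the alternatives ranged from 0.0416 to 0.589.

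Prdx5 (ENSRNOG00000021125, chromosome 1), found in mitochondria, peroxisomes and cytosol, read 52.6, 57.8 and 48.0 FPKM in the CL rats against 53.3, 49.1 and 46.8 FPKM in the FL rats. Prdx1 (ENSRNOG00000017194, chromosome 5), of the cytosol, read 8.43, 10.1 and 8.82 FPKM in the CL rats against 7.69, 8.62 and 10.5 FPKM in the FL rats. In both genes the groups overlapped. Their log2FC values of -0.08 (SE 0.12, adjusted p = 0.643) for Prdx5 and -0.03 (SE 0.15, adjusted p = 0.891) for Prdx1 lay -0.37 and -0.32 from the median of all genes and turned positive after rescaling to the same sum (0.09 and 0.14). The nearest profiles were those of Ecsit, Ulk1 and Serpinf1 for Prdx5 (0.0289, 0.0303 and 0.0329), of Nop9 and Adgrl1 for Prdx1 (0.0448 and 0.0471, after a nearer gene that is left out), and of Abhd11, Ruvbl2 and Suv420h1 for Prdx6 (0.0388, 0.0396 and 0.0413).

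Only uniquely mapped reads had been counted, so near-identical copies could lower some of these levels, which was not measured. The RefSeq gene table of the rat (GRCr8) names 7 pseudogenes of Prdx1, 4 of Gpx4, 3 of Prdx6 and 1 of Sod2, and none by this naming for the other 6 genes. It also names Prdx1l1, a protein-coding gene like Prdx1, which the expression table held under a clone name on chromosome 2 (ENSRNOG00000017695). Prdx1l1, which was singled out after its values were seen, read 20.3, 31.4 and 19.4 FPKM in the CL rats against 18.3, 24.8 and 28.4 FPKM in the FL rats, above Prdx1 itself in each rat. Its log2FC was 0.02 (SE 0.23, adjusted p = 0.956), and how reads were divided between it and Prdx1 was not tested, so the level of Prdx1 is uncertain.

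Of 8 further members of the peroxidase and peroxiredoxin families, 6 were in the table, and 3 were called higher and 0 lower, against 16.9% and 1.94% of all genes (2 and 0 with median scaling, against 8.75% and 3.59%), with a median log2FC 0.45 above that of all genes. Both counts of higher calls and the median include Gpx2, which passed the filter of 0.1 FPKM only through the FL group. Gpx7, a peroxidase of the endoplasmic reticulum, rose from 0.55, 0.68 and 0.57 FPKM in the CL rats to 1.62, 4.43 and 3.53 FPKM in the FL rats (log2FC 2.13, SE 0.35, adjusted p = 0.00797). It was called in all 15 alternatives, and as in Gpx3 the FL rats were ordered FL5, FL12 and FL2. Gpx2, known from the gut epithelium, was near 0 in the CL rats (0.02, 0 and 0.03 FPKM) and read 0.16, 0.57 and 0.69 FPKM in the FL rats (adjusted p = 0.0249). Since it was tested only because its FL level is high, no conclusion is drawn from this call. Prdx2 read 36.7, 37.1 and 32.6 FPKM in the CL rats against 44.9, 51.8 and 55.1 FPKM in the FL rats (log2FC 0.51, SE 0.12, adjusted p = 0.0282). The calls of Gpx2 and Prdx2 were each lost in 5 of the 6 fits that left out a rat (all but FL2) and with quantile normalization, and that of Prdx2 also with median scaling and without the trend, with adjusted p-values over the alternatives up to 0.0875 and 0.112. Prdx4 was the most abundant of the list, with values from 51.0 to 61.2 FPKM in the CL rats and from 50.4 to 57.5 FPKM in the FL rats.

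Marker genes of cell types were read beside these results. For stellate cells or myofibroblasts, 8 of 11 tested markers were called higher and 0 lower, against 16.9% and 1.94% of all genes, with a median log2FC 1.82 above that of all genes. Their summed level was 88.1, 88.9 and 81.4 FPKM in rats CL5, CL6 and CL7 against 228, 559 and 506 FPKM in rats FL2, FL5 and FL12, so FL5 was the highest and FL2 the lowest FL rat, as for Gpx3. Col3a1, a fibrillar collagen, was the most abundant marker, and Col1a1 read 2.12, 3.77 and 2.12 FPKM in the CL rats against 17.0, 101 and 73.7 FPKM in the FL rats. Col1a2 was not tested, since it was listed at 0.01 to 0.18 FPKM. Plod2, a collagen lysyl hydroxylase, had the profile nearest to that of Gpx3, at a root mean square difference of 0.174, followed by Birc5 (0.188) and a tetranectin-like gene (0.205). Each of these genes read under 1 FPKM in every CL rat. They entered the search, which asked for a mean of 1 FPKM, only through the FL group, so this likeness is partly set by that limit. The markers of cycling cells summed to 2.57, 4.60 and 2.92 FPKM in the CL rats and 3.60, 17.3 and 14.7 FPKM in the FL rats. Among them, 1 of 6 was called higher (Mki67, the most abundant) and 0 lower, again beside 16.9% and 1.94% of all genes, with a median log2FC 1.08 above that of all genes. The call of Mki67 (adjusted p = 0.0478) was lost in 11 of 15 alternatives, among them median scaling and 5 of the 6 fits without a rat. The part of these cells in the change of Gpx3 was not tested.

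For hepatocytes, 0 of 12 markers were called in either direction by limma, against 16.9% higher and 1.94% lower over all genes. At an unadjusted p under 0.05, 2 were higher and 0 lower, but the share of all genes at that level was not worked out. In 3 of the 12 every FL rat was below every CL rat, and in 2 every FL rat was above, against 4.78% and 35.7% of all genes. Their summed level was 56782, 54063 and 54831 FPKM in the CL rats and 54010, 47957 and 47011 FPKM in the FL rats. In FL2 the sum held 7001 FPKM of Hpx and 3803 FPKM of Fgb, whose highest CL values were 2259 and 1786 FPKM. Alb, the most abundant, read 33392, 31431 and 31992 FPKM and then 24149, 25052 and 25209 FPKM (log2FC -0.38, SE 0.98). Its standard error was wide for the spread of the rats, as were those of Tf (SE 0.48) and Ttr (SE 0.42). The 0 of 12 calls therefore cannot show that these markers were unchanged. The median log2FC of the 12 markers lay -0.27 from that of all genes and 0.36 above it after quantile normalization, so its direction turned. For red blood cells, which are rich in catalase and peroxiredoxins, 0 of 7 tested markers were called by limma, against 16.9% and 1.94% of all genes. At an unadjusted p under 0.05, 0 of these markers were higher and 1 was lower, again without a share of all genes to compare. Their sum was 92.3, 164 and 116 FPKM in the CL rats and 131, 50.7 and 52.8 FPKM in the FL rats, mostly from Hbb, and Hbb-b1 was listed at 0 in FL12. Their median log2FC lay -0.80 from that of all genes, and FL5, the FL rat with the highest Cat, had the lowest sum. The part of hepatocytes or red blood cells in the lower levels of Cat, Gpx1 and Sod3 was not tested.

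Over all genes 16.9% were called higher and 1.94% lower, or 8.75% and 3.59% with median scaling. Of the other cell types, 5 of 10 macrophage markers were called higher and 0 lower (median 0.45 above that of all genes, and 3 called with median scaling). Their sum was 190, 173 and 184 FPKM in the CL rats and 386, 385 and 220 FPKM in the FL rats, with Clec4f the most abundant in the CL group but not in the FL group. Neutrophil markers summed to 0.800, 1.29 and 1.31 FPKM in the CL rats and 6.75, 2.79 and 5.43 FPKM in the FL rats. Of 5 tested, 4 were called higher and 0 lower (median 1.43 above, and 1 called with median scaling), S100a8 the most abundant although its call was lost in 11 of 15 alternatives, Mpo at 0 in every CL rat and in FL5, and Camp at 0 in every rat but CL5. The 5 tested and their median include Ngp, which was not called and averaged 0.07 FPKM in the CL group, under the filter. Ngp was tested only through its FL level of 0.183 FPKM. Lymphocyte markers summed to 12.3, 10.3 and 11.2 FPKM in the CL rats and 23.3, 30.6 and 24.0 FPKM in the FL rats, mostly from Cd4, the 1 of 8 tested that was called (higher, list median 0.57 above that of all genes, or 0.33 after quantile normalization), with Ms4a1 at 0 in CL5. Cd3d, Cd3e and Cd3g of the same list read only 0.07 to 1.03 FPKM over all rats and did not pass. Which cells carried the RNA of Cd4 was not tested. Endothelial markers, led by Kdr in the CL but not the FL group, summed to 79.3, 76.8 and 69.3 FPKM in the CL rats and 93.2, 80.4 and 88.8 FPKM in the FL rats. Of these, 2 of 7 were called higher and 0 lower (1 with median scaling, median 0.01 above that of all genes, 0.12 above it with quantile normalization and below it with median scaling). Cholangiocyte markers, led by Epcam, summed to 5.39, 7.75 and 5.58 FPKM in the CL rats and 5.38, 8.06 and 11.4 FPKM in the FL rats. Of these, 0 of 5 tested were called by limma (median 0.04 above that of all genes, or 0.08 after quantile normalization). At an unadjusted p under 0.05, 1 was higher (Cftr) and 0 lower, without a share of all genes to compare. Cftr averaged 0.0867 FPKM in the CL group, under the filter of 0.1 FPKM. It was thus tested only through its FL level of 0.483 FPKM. The part of all these cell types in the levels of the antioxidant genes was not tested.

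Catalase works on the hydrogen peroxide that oxidases of the peroxisome release. Of 9 such oxidases in the table, 1 was called higher and 2 lower, against 16.9% and 1.94% of all genes (0 and 3 with median scaling, against 8.75% and 3.59%), with a median log2FC -0.39 from that of all genes, but only -0.01 after quantile normalization. Hao2, a hydroxyacid oxidase, fell from 134, 161 and 145 FPKM in the CL rats to 66.0, 82.5 and 36.4 FPKM in the FL rats (log2FC -1.32, SE 0.28, adjusted p = 0.0169), and without CL6 or CL7 it passed no longer. Hao1, which oxidises glycolate, read 108, 106 and 103 FPKM in the CL rats against 80.5, 72.5 and 67.3 FPKM in the FL rats (log2FC -0.53, SE 0.12, adjusted p = 0.0229), whereas Pipox, which oxidises sarcosine and pipecolate, read 52.1, 38.6 and 33.0 FPKM and then 71.2, 72.5 and 68.7 FPKM (log2FC 0.81, SE 0.17, adjusted p = 0.0175). The call of Hao1 was lost without CL5, CL6, CL7, FL5 or FL12 and after rescaling to the same sum, and that of Pipox without CL6, CL7, FL5 or FL12 and with median scaling. Uox, urate oxidase, was the most abundant of the list and did not pass on the deposited FPKM, while it did with median scaling (adjusted p = 0.0474), at 276, 240 and 314 FPKM in the CL rats and 194, 210 and 213 FPKM in the FL rats (adjusted p = 0.0999). Of 15 peroxins tested, which assemble peroxisomes, 0 were called higher and 1 lower (2 with median scaling), beside the same shares of all genes, with a median log2FC -0.24 from that of all genes. The call was Pex11a, with 8.33, 5.70 and 5.09 FPKM in the CL rats and 2.68, 4.52 and 3.01 FPKM in the FL rats (log2FC -0.89, SE 0.25, adjusted p = 0.0419), which was lost in 8 of 15 alternatives, among them the fits without CL5, CL6, CL7, FL2 or FL12. Pex16 was the most abundant peroxin, at 13.9 to 16.5 FPKM in the CL rats and 15.4 to 20.2 FPKM in the FL rats.

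The dismutases and catalase need copper, manganese and haem. Of 12 genes that supply them, 2 were called higher and 1 lower, against 16.9% and 1.94% of all genes, with a median log2FC -0.07 from that of all genes and 0.06 above it after quantile normalization. Slc39a8, a manganese and zinc importer, fell from 14.3, 14.9 and 14.8 FPKM in the CL rats to 7.18, 9.16 and 8.45 FPKM in the FL rats (log2FC -0.83, SE 0.12, adjusted p = 0.00604) and was called in all 15 alternatives. The copper pumps Atp7a and Atp7b had log2FC values of 0.82 (SE 0.22, adjusted p = 0.0406) and 0.42 (SE 0.11, adjusted p = 0.0318), and each call was lost, among others, with median scaling, with quantile normalization and in 5 of the 6 fits that left out a rat (all but FL2). Slc31a1, a copper importer and the most abundant of the list, read 54.7 to 61.2 FPKM in the CL rats and 42.5 to 52.3 FPKM in the FL rats without passing (adjusted p = 0.156).

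Glutathione peroxidases depend on selenium, on glutathione and on NADPH. Of 12 tested genes of selenium handling, 0 were called higher and 1 lower, against 16.9% and 1.94% of all genes, with a median log2FC -0.19 from that of all genes (-0.11 after quantile normalization). The call was Dio1, a selenium-containing deiodinase, with 48.7, 52.8 and 55.8 FPKM in the CL rats and 37.9, 26.2 and 26.9 FPKM in the FL rats (log2FC -0.81, SE 0.16, adjusted p = 0.0146, lost without CL6, CL7, FL5 or FL12). Sepp1, the plasma selenium carrier, was the most abundant and read 3607, 3763 and 3732 FPKM in the CL rats against 2921, 2581 and 2178 FPKM in the FL rats. The groups did not overlap but the call was not reached (log2FC -0.54, SE 0.35, adjusted p = 0.302). As for Alb, the standard error was wide for the spread of the rats. Of 9 genes of glutathione synthesis and recycling, 0 were called by limma, against 16.9% and 1.94% of all genes. With median scaling 0 were called higher and 1 lower, against 8.75% and 3.59%. At an unadjusted p under 0.05, 1 was higher and 1 lower, without a share of all genes to compare. The list median lay -0.27 from that of all genes (-0.02 after quantile normalization). Cth, the most abundant of these, ranged from 79.2 to 94.7 FPKM in the CL rats and from 70.4 to 125 FPKM in the FL rats. Of 9 genes of NADPH supply, with a median -0.23 from that of all genes and 0.14 above it after quantile normalization, 1 was called higher and 0 lower, against 16.9% and 1.94% of all genes. It was Idh2, the mitochondrial isocitrate dehydrogenase, with 20.6, 24.3 and 23.1 FPKM in the CL rats and 36.0, 44.6 and 30.7 FPKM in the FL rats (log2FC 0.70, SE 0.15, adjusted p = 0.0209), a call that was lost with median scaling, with quantile normalization, without the trend and in 4 of 6 fits that left out a rat (CL5, CL6, CL7 or FL5). Idh1 was the most abundant, with 106 to 132 FPKM in the CL rats and 118 to 129 FPKM in the FL rats.

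Peroxiredoxins are restored by the thioredoxin and glutaredoxin system, of which 2 of 14 genes were called higher and 0 lower, against 16.9% and 1.94% of all genes. With median scaling 1 was called higher and 1 lower, against 8.75% and 3.59%. The list had a median log2FC -0.12 from that of all genes (-0.05 after quantile normalization). Sesn3, a sestrin, rose from 3.13, 3.59 and 2.85 FPKM in the CL rats to 5.16, 8.26 and 5.55 FPKM in the FL rats (log2FC 0.94, SE 0.20, adjusted p = 0.0176) and kept the call in 12 of 15 alternatives, losing it without CL5 or CL7 and with quantile normalization. Txnip, an inhibitor of thioredoxin, had a log2FC of 0.55 (SE 0.16, adjusted p = 0.0476) that passed in 5 of 15 alternatives and in the fit without FL2 alone among those that left out a rat. Txn1, the most abundant gene of the list, read 41.1 to 58.7 FPKM in the CL rats and 52.9 to 67.3 FPKM in the FL rats (adjusted p = 0.283). Of 14 transcription factors and regulators known to act on antioxidant genes, 2 were called higher and 0 lower, against 16.9% and 1.94% of all genes, with a median log2FC -0.07 from that of all genes and 0.07 above it after quantile normalization. They were Mafk, a partner of Nrf2 (log2FC 0.56, SE 0.11, adjusted p = 0.0146), and Nfkb1, a subunit of NF-kB (log2FC 0.64, SE 0.12, adjusted p = 0.0127). Both calls were lost without CL7 or FL5 and with quantile normalization, that of Mafk also with median scaling. Nfe2l1 had the highest mean of these in the CL group but not in the FL group, at 24.8 to 31.6 FPKM in the CL rats and 26.0 to 30.3 FPKM in the FL rats.

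The 250 bases before the annotated start of Cat and Gpx1, whose profiles were most alike, and of Gpx3, which went the other way, are shown from RefSeq (GRCr8). Of the 10 genes, 8 had such an entry, and Sod3 and Prdx6 had none. Searched on both strands were CCAAT (the CCAAT box), GGGCGG (a GC box) and TGACNNNGC (the core of the antioxidant response element), which occurred in 34.0%, 30.5% and 10.1% of 33469 promoters of the same length, and capitals mark every match. No matches overlapped in these 3 sequences.
Cat chr3:110329527-110329776 (minus strand): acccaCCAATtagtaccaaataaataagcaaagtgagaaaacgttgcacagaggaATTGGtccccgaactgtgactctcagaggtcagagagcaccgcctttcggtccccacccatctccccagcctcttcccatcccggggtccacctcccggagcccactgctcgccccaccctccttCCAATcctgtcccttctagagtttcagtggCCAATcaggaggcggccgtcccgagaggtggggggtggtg
Gpx1 chr8:117905212-117905461 (plus strand): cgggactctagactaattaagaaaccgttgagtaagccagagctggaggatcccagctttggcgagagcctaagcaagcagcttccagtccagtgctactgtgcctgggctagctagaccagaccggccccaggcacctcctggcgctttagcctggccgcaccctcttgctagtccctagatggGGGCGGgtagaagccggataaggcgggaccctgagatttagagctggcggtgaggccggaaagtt
Gpx3 chr10:39529085-39529334 (plus strand): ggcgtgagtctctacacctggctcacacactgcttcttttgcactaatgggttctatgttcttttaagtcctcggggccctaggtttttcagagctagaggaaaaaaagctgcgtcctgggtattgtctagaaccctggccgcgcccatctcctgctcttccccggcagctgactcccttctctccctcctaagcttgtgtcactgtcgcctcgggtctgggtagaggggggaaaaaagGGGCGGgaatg
Cat held 4 matches to CCAAT, beginning 245, 195, 70 and 40 bases before the start, and 0 to the other motifs. Gpx1 held 1 match to GGGCGG, beginning 65 bases before the start, and Gpx3 held 1 match to GGGCGG, beginning 11 bases before the start. Of the 8 genes with an entry, 7 had GGGCGG (all but Cat), 3 had CCAAT (Cat, Sod1 and Gpx4) and 2 had TGACNNNGC (Sod2 and Prdx1), where Gpx4 was counted over its 3 annotated starts. A match describes the letters and does not show that a factor binds there.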

How the data were processed

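RNA from 6 rat livers (3 CL, 3 FL) was used, with groups taken from the sample titles. Reads trimmed by FASTX-Toolkit and mapped by TopHat2 were counted where they mapped uniquely, and the authors deposited FPKM with 2 decimals. The submitters' notes name GRCh38, although gene identifiers were those of Ensembl for rat genes. Its annotation release was not given in the sources used here. In the same table, 2 further columns were not used. Genes averaging 0.1 FPKM or more were tested by limma on log2(FPKM + 0.1) with eBayes trend, and Benjamini-Hochberg adjustment ran over all of them. This scale understates changes of low genes. The members and lists were chosen with earlier results of these data known. Lists covered related families, cofactors, peroxisomes, regulators and cell type markers. The genes named were the members, called genes of each pathway list, the most abundant gene of every list over all rats, markers at 0, Col1a1 and Col1a2 and the 3 nearest profiles, less a few names left out. Where a symbol had several rows, the most abundant was used. Pgd, Ddo, Gpx5, Gpx6, Pecam1, Hba-a1, Hba-a2 and Ccnb2, among others, were not analysed here. Identical values above 0 made up 0.866% to 2.54% of genes in pairs of rats. Alternatives were other pseudocounts (1 and 0.01), filters (none, or a mean of 1 FPKM), scalings (median ratio over 9201 genes, quantile, equal sums), priors, a fold limit of 2 and leaving out each rat. The fit was tested on simulated data. R 4.3.3, limma 3.58.1, Python 3.11.15, numpy 2.4.6, pandas 2.3.3 and matplotlib 3.10.9 were used.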

Additional observations from a re-analysis of the deposited data

How the results depend on the processing

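Gpx3 and Sod3 kept their direction and their call in all 15 alternatives (the fold limit counted apart). The number of the 10 genes called higher went from 1 to 2 after rescaling to equal sums, when Prdx6 was added, and lay at 1 in each fit without a rat. The number called lower went from 2 to 4 with median scaling, to 3 with a mean of 1 FPKM or a robust prior, to 1 with quantile normalization, equal sums, no filter or limma without trend, to 0 with the fold limit of 2, and from 1 to 2 in fits without a rat. Over all genes, the number called higher went from 2518 to 1301 (median scaling), 778 (quantile normalization), 3939 (equal sums) and 1381 (fold limit), and from 898 to 3190 in fits without a rat, and the number called lower from 288 to 533, 536, 191 and 139, and from 118 to 337. With a mean of 1 FPKM, 2076 of 10535 genes tested were called higher and 251 lower. With no filter, 1949 of 19097 were called higher and 222 lower. A robust prior gave 2530 higher and 289 lower, and limma without trend 2051 and 194. The log2 fold change turned positive with equal sums in Sod1 (0.05), Sod2 (0.06), Prdx1 (0.14) and Prdx5 (0.09), in Sod2 without FL12 (0.01, in fits without a rat from -0.26), and in Prdx1 without CL6 (0.04) or FL2 (0.07, from -0.15). The cause was not tested. Of all log2 fold changes of the 10 genes under the alternatives, 129 kept direction and side of the threshold, 9 lost the call, 5 gained it and 7 turned. No paired analysis was possible because the groups held different rats, and the number 5 in CL5 and FL5 marks no pair. Without read counts, depth gives no counting error for low values.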
